A study of Rattus norvegicus with 6 samples.

Results

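Rat genes that mark nociceptors or encode transient receptor potential (TRP) channels were examined one library at a time, namely *Trpv1*, *Trpa1*, *Trpm8*, *Trpv2*, *Trpc5*, *Asic3*, *Mrgprd*, *Prdm12*, *Pou4f1* and *Avil*. They were taken from the table by gene symbol, from a list made with earlier results of these data known, and are 10 of the 22050 genes in the table of spinal cord RNA-seq. All 10 were found, and all 10 passed the filter on low counts. Nociceptors are the sensory neurons that detect damaging heat, cold, acid and chemicals. Their cell bodies lie in the dorsal root ganglia, beside the spinal cord and not inside it, and their axons run both to the periphery and into the dorsal horn. TRP channels are cation channels, several of which open in response to temperature or irritants, and the receptors and transcription factors of the list mark the same neurons or set up their identity during development.

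The RNA came from spinal cord of male Sprague-Dawley rats. The 3 sham rats had a sham operation, and the 3 SNI-NP rats had a spared nerve injury, a model of neuropathic pain made by injuring branches of the sciatic nerve while keeping the sural branch. The labels name no transgene or drug for either group, and the level of the cord and the time after surgery are not given in the sources used here. The labels number the libraries 1 to 3 in each group and do not say more on their origin, so p-values measure the spread between these 6 samples.

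The libraries held between 16670760 and 18151156 estimated counts, and a count of 0 allowed a level of up to between 0.167 and 0.18 CPM, which covers counting error only. CPM values are counts divided by the TMM-scaled total of their library, and are not corrected for gene length. Spinal cord markers were present, since all 10 of the listed spinal neuron genes and all 6 oligodendrocyte genes passed the filter. *Scn10a*, a sodium channel of nociceptors, was at 14.3 CPM in SNI-NP replicate 1 and between 88.1 and 276.6 CPM in the other libraries. The summed level of 15 dorsal root ganglion neuron genes, none of them among the 10, was 366, 733.5 and 835 CPM in sham replicates 1 to 3 and 109, 1085 and 813.7 CPM in SNI-NP replicates 1 to 3. SNI-NP replicate 1 thus stood apart from the rest, and the fold changes of the 10 genes and the counts of the gene lists are given with and without it. In bulk tissue, fewer cells of a type and less RNA per cell cannot be told apart.

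The sequences just upstream of the genes are shown for 4 members, chosen because their windows hold one of the motifs searched or, for *Avil*, because it had the highest level. RefSeq promoters of the GRCr8 build were found for 8 of the 10 genes (9 entries, since *Prdm12* has 2). *Trpa1* and *Mrgprd* had no entry. The 250 bases before each start site were searched on both strands. ATTAAT, a core bound by POU and homeodomain proteins, which is also the class of *Pou4f1*, was in 2 of the 9 entries and in 4.71% of 33469 rat promoters. TAATTA, a homeodomain core that can overlap the former, was in 1 of 9, in *Trpm8*, and in 4.86% of promoters. The TATA box letters TATAAA were in 2 of 9 and in 12.9% of promoters, and the GC box letters GGGCGG were in 2 of 9, both of *Prdm12*, and in 30.5% of promoters. The windows of 80 bases are written 5′ to 3′ on the strand of the gene, with ATTAAT and TATAAA in capitals.
*Prdm12*, entry 2, chr3:35325928-35326007, plus strand: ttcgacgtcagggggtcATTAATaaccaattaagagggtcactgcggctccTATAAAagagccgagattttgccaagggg
*Asic3*, chr4:11657456-11657535, minus strand: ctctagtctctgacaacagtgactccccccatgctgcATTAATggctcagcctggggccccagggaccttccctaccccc
*Trpm8*, chr9:96351592-96351671, plus strand: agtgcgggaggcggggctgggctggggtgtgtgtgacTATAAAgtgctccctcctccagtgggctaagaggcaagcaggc
*Avil*, chr7:64711323-64711402, plus strand: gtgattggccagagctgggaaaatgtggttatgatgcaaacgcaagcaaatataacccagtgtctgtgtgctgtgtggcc
A match is a description of the letters in these windows and not of binding.

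The libraries at the low end were shared by all the genes but *Trpc5*. SNI-NP replicate 1 had the lowest level of the 6 libraries for 9 of 10 genes, all but *Trpc5*, against 17.1% of all genes tested. SNI-NP replicate 2 had the highest level for 8 of 10 genes, against 17.5% of all genes. Sham replicate 1 was next to the lowest for 9 of 10 genes, and the share of all genes for this rank alone was not computed. The lowest, next lowest and highest libraries were these 3 in 8 of 10 genes and in 2.53% of all genes. SNI-NP replicate 1 was under 50% of the sham mean for 8 of 10 genes, against 4.3% of all genes, and the highest library was over 5 times the lowest for 9 of 10 genes, against 5.95%. The groups overlapped for all 10 genes, whereas every SNI-NP library was above every sham library for 10.4% of all genes and below for 8.15%.

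**Figure D1:**
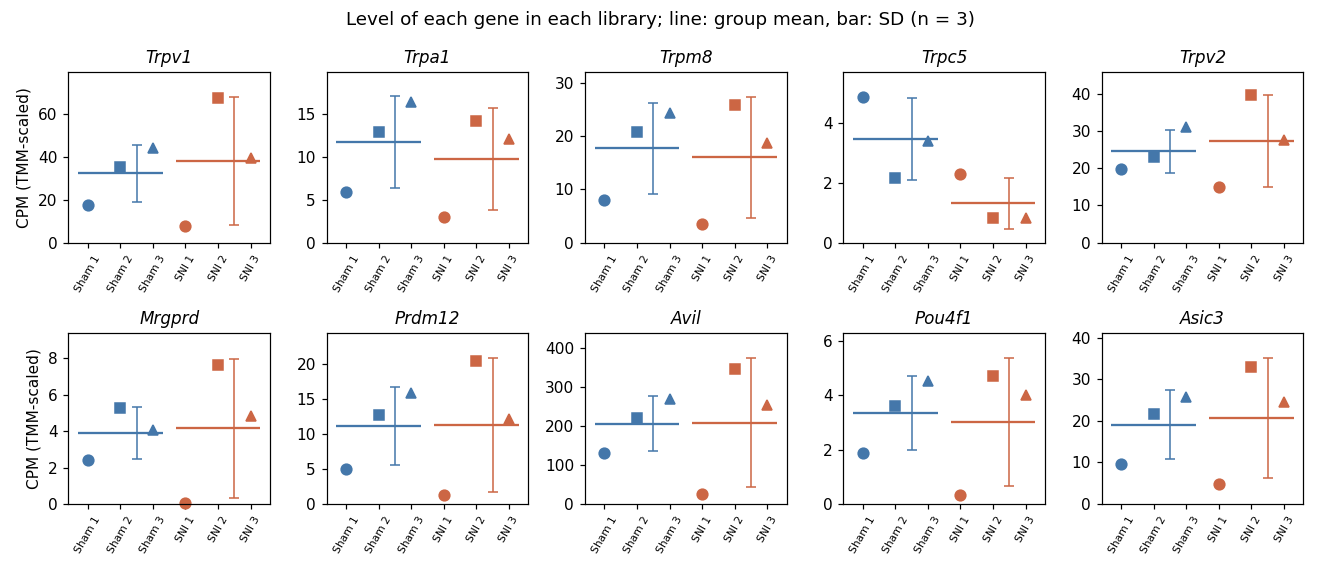
Level of each of the 10 genes (y axis, CPM scaled with TMM factors) in each of the 3 sham (blue) and 3 SNI-NP (orange) libraries. Points are libraries, horizontal lines are group means and bars are the SD (n = 3). SNI-NP replicate 1 is the lowest point in 9 panels, and for *Trpc5* the lowest points are SNI-NP replicates 2 and 3.

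The channels that sense heat and irritants were examined first. *Trpv1* (ENSRNOG00000019486), the receptor for capsaicin and noxious heat, was at 17.6, 35.3 and 43.8 CPM in sham replicates 1 to 3 and at 7.76, 67.2 and 39.5 CPM in SNI-NP replicates 1 to 3. The SNI-NP group thus held both the lowest and the highest library. The means were 32.2 ± 13.4 and 38.2 ± 29.7 CPM (SD, n = 3 each). The log2 fold change of *Trpv1* was 0.24 (SE 0.67), with an adjusted p of 0.911 (edgeR quasi-likelihood test, Benjamini-Hochberg adjustment over all genes tested). Without SNI-NP replicate 1 it was 0.73 (SE 0.38, adjusted p = 0.491 in edgeR).

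*Trpa1*, the channel opened by mustard oil and other irritants, was at 5.88, 12.9 and 16.4 CPM in the sham libraries and at 3.05, 14.2 and 12.1 CPM in the SNI-NP libraries. Its highest library was a sham library, unlike that of *Trpv1*, and the lowest was again SNI-NP replicate 1. The means were 11.7 ± 5.36 and 9.79 ± 5.94 CPM (SD, n = 3 each), a log2 fold change of -0.26 (SE 0.57, adjusted p = 0.886 in edgeR). It was 0.17, of opposite sign, without SNI-NP replicate 1.

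*Trpm8*, the receptor for cold and menthol, was at 8.04, 20.8 and 24.3 CPM in the sham libraries and at 3.51, 25.8 and 18.7 CPM in the SNI-NP libraries. SNI-NP replicates 2 and 3 lay close to sham replicates 2 and 3, and replicate 1 was low in both groups. The means were 17.7 ± 8.54 and 16.0 ± 11.4 CPM (SD, n = 3 each), with a log2 fold change of -0.14 (SE 0.67, adjusted p = 0.952 in edgeR). It was 0.33 when SNI-NP replicate 1 was left out.

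*Trpv2*, a relative of *Trpv1* that is opened by very high heat in isolated cells and is also found in immune cells, varied least. It was at 19.8, 22.9 and 31.0 CPM in the sham libraries and at 14.8, 39.5 and 27.6 CPM in the SNI-NP libraries. The highest library was 2.66 times the lowest, whereas this ratio was between 5.38 and 132 for the other 9 genes. The log2 fold change was 0.16 (SE 0.34, adjusted p = 0.885 in edgeR), and without SNI-NP replicate 1 it was 0.45.

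*Asic3*, an acid-sensing cation channel of sensory neurons, was at 9.73, 21.7 and 25.8 CPM in the sham libraries and at 4.72, 32.9 and 24.5 CPM in the SNI-NP libraries. SNI-NP replicate 1 was at 24.7% of the sham mean, close to the 24.1% of *Trpv1* and the 26.0% of *Trpa1*. Its log2 fold change was 0.12 (SE 0.64, adjusted p = 0.959 in edgeR), and without SNI-NP replicate 1 it was 0.59.

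*Mrgprd*, a receptor for beta-alanine that marks nociceptors ending in the skin, had 40, 93 and 70 counts in the sham libraries and 1, 137 and 83 counts in the SNI-NP libraries. Scaled by library these were 2.40, 5.24 and 4.07 CPM in sham rats and 0.0575, 7.61 and 4.81 CPM in SNI-NP rats. SNI-NP replicate 1 was therefore at 1.47% of the sham mean. The exact 95% interval was 0.0368% to 8.24%, from a binomial test of the 1 count in that library against the summed sham counts. It covers counting error only and not the spread between the sham rats. In that library the other 9 genes were at 10.3% to 66.5% of their sham means, the lowest being *Pou4f1* with 6 counts. The group means were 3.90 ± 1.43 and 4.16 ± 3.82 CPM (SD, n = 3 each), and the log2 fold change was 0.091 (SE 0.97, adjusted p = 0.979 in edgeR). *Mrgprd* had a log2 fold change of 0.67 without SNI-NP replicate 1.

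Regulators of nociceptor identity had the same lowest, next lowest and highest libraries. *Prdm12*, a zinc finger protein that nociceptors need in order to form, was at 4.98, 12.7 and 15.9 CPM in the sham libraries and at 1.27, 20.4 and 12.1 CPM in the SNI-NP libraries. The group means differed little, at 11.2 ± 5.6 and 11.3 ± 9.59 CPM (SD, n = 3 each), while the libraries spread 16.1 times from lowest to highest. Its log2 fold change was 0.0093 (SE 0.81, adjusted p = 0.998 in edgeR), and 0.54 without SNI-NP replicate 1.

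*Pou4f1*, a homeodomain factor also called Brn3a that is made by most sensory neurons, was at 1.86, 3.61 and 4.54 CPM in the sham libraries and at 0.345, 4.72 and 4.0 CPM in the SNI-NP libraries. The SNI-NP replicate 1 value rests on 6 counts. For *Pou4f1* the log2 fold change was -0.14 (SE 0.76, adjusted p = 0.958 in edgeR), and 0.38 without that library.

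*Avil* encodes advillin, an actin-binding protein of peripheral sensory neurons, and had the highest level of the 10 genes. It was at 129.6, 219.8 and 268.0 CPM in the sham libraries and at 26.0, 346.8 and 252.7 CPM in the SNI-NP libraries. The groups had nearly equal means of 205.8 ± 70.3 and 208.5 ± 164.9 CPM (SD, n = 3 each), although SNI-NP replicate 1 was at 12.6% and SNI-NP replicate 2 at 169% of the sham mean. *Avil* had a log2 fold change of 0.019 (SE 0.76, adjusted p = 0.994 in edgeR), and 0.54 without SNI-NP replicate 1.

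*Trpc5* was the exception. It encodes a cation channel found in neurons of the brain and in sensory neurons, where it takes part in the response to cold. It had 81, 38 and 58 counts in the sham libraries and 40, 15 and 14 counts in the SNI-NP libraries, which are 4.86, 2.14 and 3.38 CPM and 2.30, 0.833 and 0.812 CPM. SNI-NP replicates 2 and 3, which were above the sham mean for each of the other 9 genes, were here at 24.1% and 23.5% of the sham mean. The groups overlapped by 1 pair of libraries, since SNI-NP replicate 1 was above sham replicate 2. The means were 3.46 ± 1.36 and 1.32 ± 0.854 CPM (SD, n = 3 each), and the exact two-sided permutation test of the 6 values of log2(CPM + 0.1) gave p = 0.2, where 0.1 is the smallest value that 3 against 3 libraries allow.

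The log2 fold change of *Trpc5* was -1.39 (SE 0.51), with an unadjusted p of 0.0279 and an adjusted p of 0.436 in edgeR. It was the 1 gene of the 10 with an unadjusted p under 0.05 in that test, and 10.8% of all genes had one (5.94% lower and 4.91% higher in SNI-NP rats), so the count of members is near the background. At an adjusted p under 0.05, edgeR called 0 of the 10 genes and 0% of the 14426 genes tested, and DESeq2 called 0 of the 10 genes and 1.46% of all genes. Without SNI-NP replicate 1 the log2 fold change was -2.06 (SE 0.45, unadjusted p = 0.0026, adjusted p = 0.0856 in edgeR), beside 13.1% of all genes with an unadjusted p under 0.05 and 1.52% past the adjusted threshold. The unadjusted p was 0.0926, 0.0513, 0.0810 and 0.0751 without sham replicate 1, sham replicate 3, SNI-NP replicate 2 and SNI-NP replicate 3 in turn, so the unadjusted call rests on each of these libraries.

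*Trpc5* was also set against genes of spinal neurons. The summed level of the 10 listed spinal neuron genes was 352 to 798 CPM in sham rats and 348 to 477 CPM in SNI-NP rats, with 2 of the 10 lower at an unadjusted p under 0.05 in edgeR, against 5.94% of all genes, and 0 past the adjusted threshold. These were *Slc17a6*, the glutamate transporter of excitatory neurons (log2 fold change -0.77, SE 0.16, adjusted p = 0.307), and *Snap25*, a synaptic release protein (-0.65, SE 0.23, adjusted p = 0.436). They had -0.74 and -0.81 without SNI-NP replicate 1. In that fit 3 of the 10 genes were lower at an unadjusted p under 0.05, against 9.52% of all genes. The sum was 798, 352 and 641 CPM in sham replicates 1 to 3. It was 477, 360 and 348 CPM in SNI-NP replicates 1 to 3. Per 1000 CPM of this list, *Trpc5* was at 6.09, 6.08 and 5.26 in the sham libraries and at 4.82, 2.32 and 2.33 in the SNI-NP libraries. On this scale every SNI-NP library was below every sham library, the closest values being 4.82 and 5.26, from 40 and 58 counts. The share of all genes with this order was not computed on this scale, so no result is read from the order. On the CPM scale that share was 8.15%, and there the groups overlapped for *Trpc5*. With the mean log2 CPM of the list as a covariate, the log2 fold change of *Trpc5* was -0.87 (SE 0.43, unadjusted p = 0.0871, adjusted p = 0.573 in edgeR), where 8.98% of all genes had an unadjusted p under 0.05. That covariate was chosen after the values were seen, and the scale per 1000 CPM of the same list was not planned beforehand. The part of spinal neuron content in the result was not otherwise tested. DESeq2 called *Slc17a6* of this list at an adjusted p under 0.05. SNI-NP replicate 1 was lowest for 2 of the 10 listed genes, against 17.1% of all genes. The part of ganglion neurons in the levels of this list was not tested. The length of *Trpc5* implied by its count and FPKM also ran from 2929 to 3866 bases over the libraries.

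**Figure D2:**
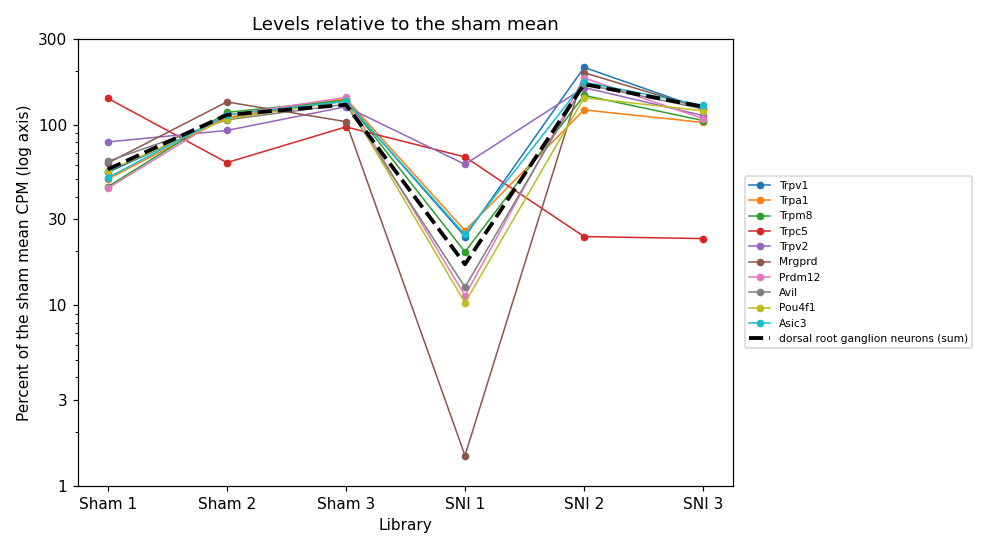
Level of each gene as a percent of its sham mean CPM (y axis, log scale) in the 6 libraries (x axis), with the sum of the dorsal root ganglion neuron list (black, dashed). Lines join libraries only to guide the eye. The ganglion sum and 9 of the genes are lowest in SNI-NP replicate 1, where *Mrgprd* is at 1.47%, and *Trpc5* is lowest in SNI-NP replicates 2 and 3.

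The 9 genes other than *Trpc5* were then set against the ganglion list. Of its 15 genes 14 passed the filter, and SNI-NP replicate 1 was lowest for 14 of these 14, against 17.1% of all genes. Of them 0 had an unadjusted p under 0.05 in edgeR or in DESeq2, nor in edgeR without SNI-NP replicate 1. *Lpar3*, *Gfra3*, *Piezo2* and *Tmem233* had the smallest p-values of the list, with adjusted p of at least 0.491 in edgeR. The summed level of the 10 genes of interest was 204.7, 357 and 437.2 CPM in the sham libraries and 63.8, 560.1 and 396.9 CPM in the SNI-NP libraries, with the same lowest, next lowest and highest libraries as the ganglion list. The part of the amount of ganglion tissue in these levels was not tested beyond these values.

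Divided by the summed ganglion list of the same library, 5 of the 9 genes had a small ratio of highest to lowest library. It was 1.46 for *Trpm8*, 1.48 for *Trpv1* and for *Avil*, 1.63 for *Asic3* and 1.64 for *Prdm12*. On the CPM scale the same genes had ratios of 7.36, 8.65, 13.3, 6.98 and 16.1. *Pou4f1* had a ratio of 1.72 and *Trpa1* of 2.13. *Trpv2* and *Mrgprd* kept more of their spread, at 4.37 and 13.5. In SNI-NP replicate 1, *Trpv2* was at 3.34 times its sham mean on this scale and *Mrgprd* at 0.0852 times, whereas *Trpv1* was at 1.44 times and *Avil* at 0.734 times. The groups overlapped for all 10 genes on this scale too.

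**Figure D3:**
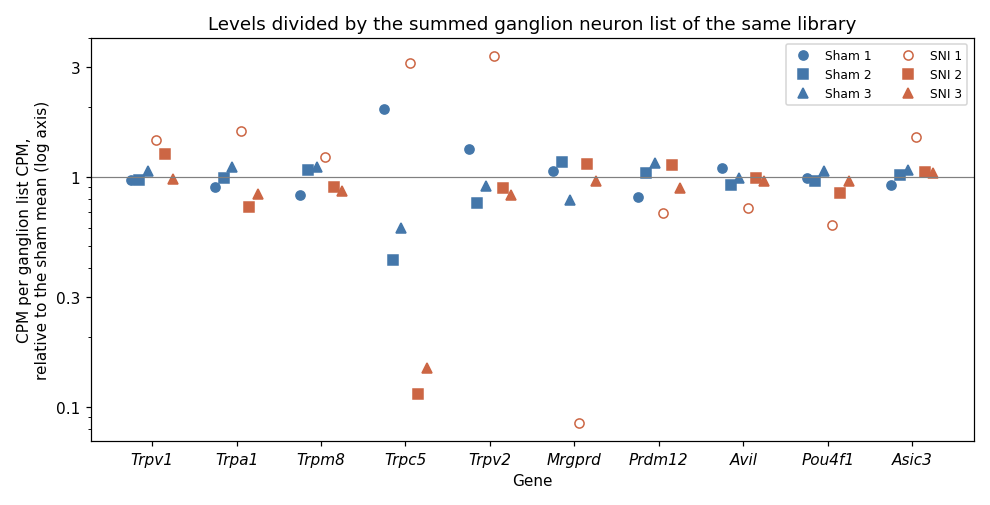
Level of each gene divided by the summed dorsal root ganglion neuron list of the same library, relative to the sham mean (y axis, log scale). Points are libraries, with SNI-NP replicate 1 as open circles. Most points lie near 1, while *Trpc5*, *Trpv2* and *Mrgprd* have libraries far from it (3.13, 3.34 and 0.0852 in SNI-NP replicate 1).

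With the mean log2 CPM of the ganglion list as a covariate in the edgeR fit, the standard errors of the 8 of these 9 genes that had one ran from 0.12 to 0.24, against 0.34 to 0.97 for the 9 genes without it. *Avil* then had a log2 fold change of -0.045 (SE 0.12) and *Trpv1* one of 0.31 (SE 0.17, adjusted p = 0.450 in edgeR). For *Mrgprd* edgeR gave -0.31 with no usable SE. *Trpc5* had -1.78 (SE 0.33, unadjusted p = 9.4e-04, adjusted p = 0.0587 in edgeR). In this fit 15.3% of all genes had an unadjusted p under 0.05 and 1.34% passed the adjusted threshold, which none of the 10 genes did. Without SNI-NP replicate 1 and without the covariate, all 9 genes had a log2 fold change above 0, from 0.17 for *Trpa1* to 0.73 for *Trpv1*, with unadjusted p between 0.0957 and 0.681.

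**Figure D4:**
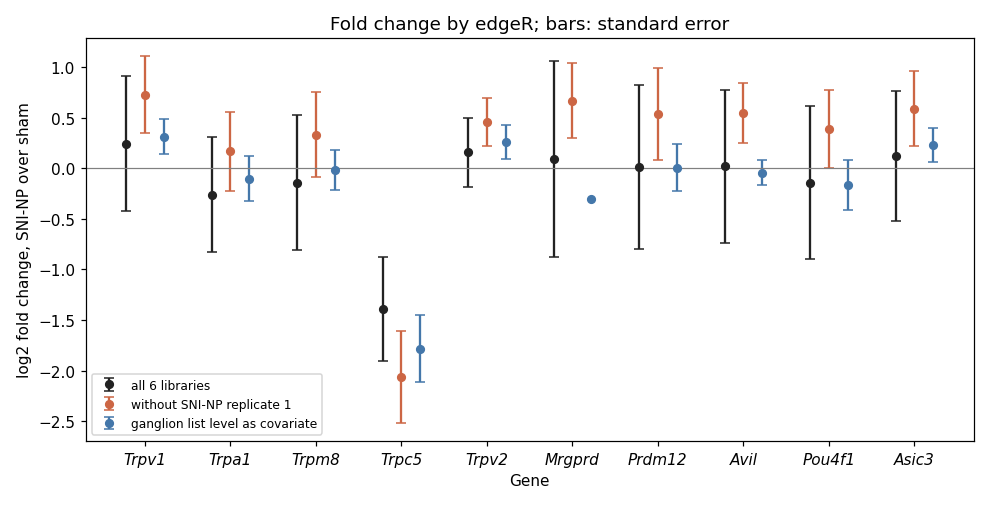
Log2 fold change of SNI-NP over sham rats for each gene (y axis) by edgeR with all 6 libraries (black), without SNI-NP replicate 1 (orange) and with the ganglion list as a covariate (blue). Bars are standard errors, which edgeR did not give for *Mrgprd* with the covariate. The bars of the other 9 genes are shorter with the covariate than with all libraries alone, and *Trpc5* lies below 0 in all 3, at -1.39, -2.06 and -1.78.

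Levels per gene length were compared as FPKM, the count corrected for gene length and library total, as deposited. Over the 6 libraries *Avil* was highest, at 69.2 ± 38.0 FPKM (SD), and above *Asic3* in 6 of 6 libraries. *Asic3* (12.5 ± 6.71 FPKM) and *Trpv1* (12.4 ± 7.43 FPKM) did not differ beyond their spread, with *Asic3* higher in 4 of 6 libraries. *Trpv2* (9.29 ± 3.21 FPKM) was above *Prdm12* (7.25 ± 4.55 FPKM), and *Prdm12* above *Mrgprd*, in 6 of 6 libraries. *Mrgprd* (4.24 ± 2.72 FPKM), *Trpm8* (4.09 ± 2.22 FPKM) and *Trpa1* (3.21 ± 1.56 FPKM) lay close together, although *Trpm8* was above *Trpa1* in 5 of 6 libraries. *Trpa1* was above *Pou4f1* (2.55 ± 1.39 FPKM) in 6 of 6 libraries. *Trpc5* was lowest, at 0.69 ± 0.441 FPKM, and below *Pou4f1* in 5 of 6 libraries.

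The 6 libraries differed in the summed ganglion list, from 109 to 1085 CPM, and all genes of a library share its depth and ganglion content. The likeness of the genes to each other was described by Pearson's r of log2 CPM with the mean of the other members over these 6 libraries. It was 0.99 for *Prdm12*, *Avil* and *Pou4f1*, 0.98 for *Trpm8* and *Trpa1*, 0.97 for *Trpv1* and *Asic3*, 0.96 for *Mrgprd* and 0.89 for *Trpv2*. *Trpc5* had -0.42. Over the 5 libraries other than SNI-NP replicate 1, r was 0.80 for *Mrgprd* and 0.83 for *Trpv2*, and -0.69 for *Trpc5*. Outside the lists, the 8 genes most like the mean of the 10 were *Ppm1j* (r = 0.999), *Parm1*, *Ubash3b*, *Kcnv1*, *Htr3b*, *Pirt*, *Ppp1r1c* and *Ywhaz* (r = 0.994), over the same 6 libraries. *Pirt* encodes a membrane protein of sensory neurons that binds the TRPV1 channel, and *Htr3b* a serotonin receptor subunit. *Htr3b* was at 0.978 CPM in SNI-NP replicate 1 and at 7.44 to 24.7 CPM in the other libraries. *Ywhaz* ran only from 602 CPM in that library to 796 CPM, since r does not measure the size of a difference.

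Other TRP channel genes were then examined. Of 23 listed, 22 were found and 15 passed the filter. SNI-NP replicate 1 was lowest for 4 of these 15, against 17.1% of all genes, and their median log2 fold change was 0.033. In edgeR 0 had an adjusted p under 0.05, and 1 was lower and 0 higher at an unadjusted p under 0.05, against 0 and 3 genes in DESeq2. This was *Trpm6*, a magnesium channel joined to a kinase, at 1.80, 2.08 and 1.28 CPM in the sham libraries and 0.690, 0.833 and 0.638 CPM in the SNI-NP libraries (log2 fold change -1.25, SE 0.35, adjusted p = 0.389). Its groups did not overlap, as for 8.15% of all genes in that direction, and without SNI-NP replicate 1 its log2 fold change was -1.22. Without that library 3 of the 15 genes were lower and 1 was higher at an unadjusted p under 0.05, against 9.52% and 3.56% of all genes. In the same fit 2 of the 15 passed the adjusted threshold, against 1.52% of all genes.

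*Trpm7*, the close relative of *Trpm6*, was at 21.6, 28.0 and 20.2 CPM in the sham libraries and at 20.9, 4.83 and 6.55 CPM in the SNI-NP libraries. *Trpm3*, a channel opened by heat and by pregnenolone sulfate, was at 34.5, 31.1 and 32.3 CPM and at 33.2, 11.4 and 14.0 CPM. Both were low in SNI-NP replicates 2 and 3 alone, the libraries in which *Trpc5* was lowest. With all libraries the log2 fold changes were -1.11 for *Trpm7* and -0.74 for *Trpm3*, at unadjusted p of 0.0638 and 0.086. Without SNI-NP replicate 1 they were -2.03 and -1.36, with adjusted p of 0.016 and 0.0162 in edgeR, and with the ganglion covariate -1.70 and -1.11, with adjusted p of 0.0449 and 0.0366. *Trpm4*, the fourth gene by p-value, had a log2 fold change of 0.39, and of 0.54 without SNI-NP replicate 1. Among the 20 TRP genes that passed the filter, *Mcoln1*, a channel of lysosomes, had the highest level per length at 20.4 FPKM, and *Trpv1* was next.

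**Figure D5:**
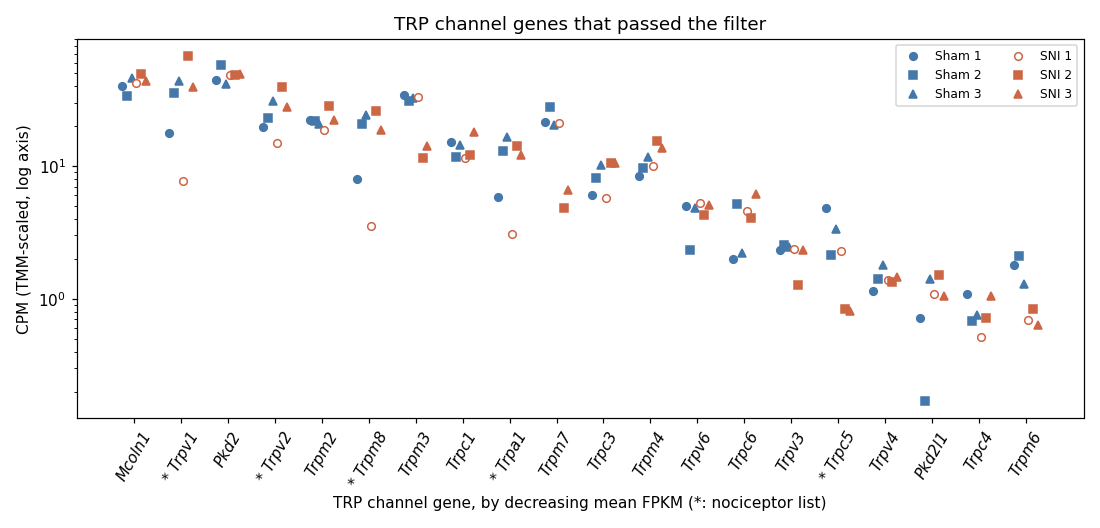
CPM (y axis, log scale) of the 20 TRP channel genes that passed the filter, ordered by decreasing mean FPKM, with the 5 of the nociceptor list marked by an asterisk. Points are libraries, with SNI-NP replicate 1 as open circles. That library lies at or near the bottom for *Trpv1*, *Trpm8* and *Trpa1* and among the sham libraries for *Trpm3* and *Trpm7*, whose SNI-NP replicates 2 and 3 are low.

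Of the 4 other acid-sensing channels 3 passed the filter, and 0 had an unadjusted p under 0.05 in edgeR, with or without SNI-NP replicate 1, or in DESeq2. *Asic1*, the most abundant of them, had 66.6, 62.3 and 80.03 CPM in sham rats and 39.7, 88.1 and 61.4 CPM in SNI-NP rats. Of 11 other Mrgpr receptors 10 were found and 5 passed the filter, with 1 higher and 1 lower at an unadjusted p under 0.05 and 0 at an adjusted p under 0.05 in edgeR, and 2 and 0 in DESeq2. *Mrgprf* was higher in SNI-NP rats (log2 fold change 0.62, SE 0.18, adjusted p = 0.391). *Mrgprx4* was lower, with 23, 26 and 29 counts in sham rats and 1, 10 and 5 counts in SNI-NP rats (-2.29, SE 0.61, adjusted p = 0.352). *Mrgprb4*, which marks another set of skin sensory neurons, had 27, 90 and 123 counts in sham rats and 1, 159 and 105 counts in SNI-NP rats, a single count in the same library as *Mrgprd*. Without SNI-NP replicate 1 the log2 fold changes were 0.55 for *Mrgprf* and -1.82 for *Mrgprx4*, and the counts at each threshold were as with it. In that fit 3.56% of all genes were higher and 9.52% lower at an unadjusted p under 0.05. Mrgpr genes lie in a family with near-identical copies, so the division of reads among them is uncertain.

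Of 12 other sensory lineage transcription factors 11 passed the filter, and 0 had an unadjusted p under 0.05 in edgeR or in DESeq2. SNI-NP replicate 1 was lowest for 8 of the 11, against 17.1% of all genes. *Etv1*, *Klf7*, *Runx1* and *Tlx3* had the smallest p-values in this list. *Tlx3*, which sets the excitatory fate of dorsal horn and sensory neurons, was at 3.30, 3.21 and 5.76 CPM in sham rats and at 1.78, 9.89 and 7.13 CPM in SNI-NP rats. *Etv1*, which acts in neurons of muscle sense, was at 31.2, 52.2 and 54.4 CPM in sham rats and at 38.1, 29.8 and 37.4 CPM in SNI-NP rats. The median log2 fold change of the list was -0.17, beside 0.0057 for all genes tested. Without SNI-NP replicate 1 it was 0.33, and 1 gene, *Tlx3*, was higher at an unadjusted p under 0.05, against 3.56% of all genes.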

How the data were processed

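RNA-seq libraries of spinal cord from 3 sham and 3 SNI-NP rats were used, grouped by the sample labels. The authors prepared libraries from total RNA and mapped reads to Rat6, keeping unique sequences. The submitters' processing notes name FastQC, STAR and HTSeq, and the strand setting is not given in the sources used here. The authors deposited estimated counts without normalization and FPKM values for 22050 genes. Of these, 2018 had a count that was not whole, none of them among the 10 genes, and 4542 had no count.

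Counts were rounded and tested with edgeR 4.0.16 (filterByExpr, TMM, quasi-likelihood test, group as the single term) in R 4.3.3, with Benjamini-Hochberg adjustment over 14426 genes. CPM used TMM-scaled totals, and log2 CPM a prior count of 2. Alternatives were DESeq2 1.42.0, RLE size factors, library totals alone, 2 filters, a replicate block, length offsets (loess, span 0.5), 2 covariates and leaving out each library. Test scripts were first run on simulated data with known changes. The members, marker lists and tests were chosen with earlier results of these data known. Genes named were the members, up to 4 genes per other list by p-value (all genes tested in short lists), and the 8 genes most correlated with the members. *Scn10a* and *Mcoln1* were named after their values were seen. A further marker list was computed and is not reported here. Gene symbols were taken from the deposited table.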

Additional observations from a re-analysis of the deposited data

How the results depend on the processing

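Same-numbered samples of the 2 groups had correlations of 0.21, -0.14 and 0.054. Replicate 1 of each group correlated best with its own number, and replicates 2 and 3 did not. So few pairs cannot decide whether the replicate numbers pair the samples. With the replicate block the log2 fold changes were -0.10 (*Trpv1*), -0.52 (*Mrgprd*), -0.43 (*Prdm12*), -0.52 (*Avil*) and -0.13 (*Asic3*), and with length offsets and the block -0.094, -0.53, -0.45, -0.52 and -0.16, each of opposite sign to the values reported. The sign also turned with the ganglion covariate for *Mrgprd* (-0.31) and *Avil* (-0.045), with library totals alone for *Prdm12* (-0.017) and *Avil* (-0.0062), with length offsets for *Prdm12* (-0.025), and with the spinal neuron covariate, added after seeing the data, for *Trpv1* (-0.25), *Mrgprd* (-0.57), *Prdm12* (-0.61), *Avil* (-0.50) and *Asic3* (-0.41). None of these was past a threshold. Leaving out each library in turn gave -0.45 to 0.73 for *Trpv1*, -0.63 to 0.17 for *Trpa1*, -0.67 to 0.33 for *Trpm8*, -0.21 to 0.45 for *Trpv2*, -0.68 to 0.67 for *Mrgprd*, -0.74 to 0.54 for *Prdm12*, -0.56 to 0.54 for *Avil*, -0.62 to 0.38 for *Pou4f1*, -0.39 to 0.59 for *Asic3* and -2.06 to -1.08 for *Trpc5*, the 1 member that kept its sign in every fit run.

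The count of members at an unadjusted p under 0.05 was 1, 0 with the spinal neuron covariate, and 0 to 1 without single libraries. Other TRP channels at that threshold numbered 1, and 3 with DESeq2, the block, or length offsets with the block, 2 with library totals alone or the spinal neuron covariate, 4 with the ganglion covariate, and 1 to 4 without single libraries. At an adjusted p under 0.05 they numbered 0, then 2 with the ganglion covariate and 0 to 2 without single libraries. Over all other lists, the unreported one included, the adjusted count was 0. It was 2 with DESeq2 (*Slc17a6* and *Slc4a1*) or the ganglion covariate, and 0 to 2 without single libraries. The unadjusted count was 12, then 19 with length offsets and the block, 24 with the ganglion covariate and 9 to 27 without single libraries. In these fits in turn, 10.8%, 9.39%, 15.3% and 6.21% to 14.6% of all genes had an unadjusted p under 0.05. The counts over the lists were not turned into shares of the list genes tested, so they are not read as a result about the lists. Of all genes, 0 passed the adjusted threshold with edgeR, 210 with DESeq2, 193 with the ganglion covariate, and 0 to 222 without single libraries (222 without SNI-NP replicate 1 and 2 without sham replicate 2), and 1565 passed the unadjusted one (908 to 2134 without single libraries). The cause was not tested. A minimum of 10 counts in every library gave no value for *Mrgprd* and *Pou4f1*, whose levels in SNI-NP replicate 1 rest on 1 and 6 counts.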

Other observations

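Among the other marker lists, the red blood cell list had the median log2 fold change farthest from 0 with all 6 libraries. Its summed level was 967 to 2357 CPM in sham rats and 2112 to 5083 CPM in SNI-NP rats, with 4 of 5 genes higher at an unadjusted p under 0.05 in edgeR, 0 past the adjusted threshold (1, *Slc4a1*, in DESeq2), and a median log2 fold change of 1.0. In edgeR 4.91% of all genes were higher at an unadjusted p under 0.05. The upper end of the SNI-NP range is SNI-NP replicate 1 alone, the others being at 2112 and 2627 CPM, and without it 2 of the 5 genes (*Alas2* and *Slc4a1*) were higher at that threshold and the median was 0.55. The meninges and fibroblast list summed to 2750 to 3948 CPM in sham rats and 3659 to 4553 CPM in SNI-NP rats, with 1 of 5 genes higher at an unadjusted p under 0.05, and 2 without SNI-NP replicate 1. Astrocyte genes summed to 749 to 1829 CPM in sham rats and 896 to 1267 CPM in SNI-NP rats, with 1 of 6 lower, and 2 without that library. Oligodendrocyte genes (29303 to 39615 CPM in sham rats, 28841 to 38485 CPM in SNI-NP rats) and microglia genes (232 to 306 CPM in sham rats, 251 to 277 CPM in SNI-NP rats) had 0 of 6 each past that threshold, and 0 and 1 without that library. Of all genes 5.94% were lower at an unadjusted p under 0.05 in edgeR with all libraries. Without SNI-NP replicate 1, 9.52% were lower and 3.56% higher.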
